A study of Mus musculus with 6 samples.

Results

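Oip5os1, Jmjd7, Ehd4, Ttbk2, Sord and Slc28a2 lie within 2.87 Mb of mouse chromosome 2. Each differed in one direction between CD4 T cells labelled YAP cKO (conditional Yap1 knockout) and wild type (WT) in all 3 populations sequenced. They were chosen by position on chromosome 2 and by that genotype difference, and they are 6 of the 23962 genes in the deposited table. The interval used below (chr2:119594296-122461152, mm10) runs from the start of the first to the end of the last, so the chosen genes set its edges. Because the genotype difference chose them, it is given as a description without a test, and only the comparisons between cell populations are tested. The p-values of those comparisons are not independent of the choice either, for a reason given with them below. Ehd4, Ttbk2 and Sord were the 3 genes higher in cKO, and Oip5os1, Jmjd7 and Slc28a2 were the 3 genes lower in cKO.

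The study measured total RNA of CD4 T cells from lymph nodes and spleens of C57BL/6 mice, in 6 libraries with 1 library per group. The YAP cKO animals carry a floxed Yap1 allele (YAP flox/flox) and the CD4-Cre+ transgene, whose CD4 promoter drives recombination in T cells that have passed through the CD4-expressing stage, so both CD4 and CD8 lineages are affected. WT animals are given in the labels as wild type with no statement on Cre. Whether the animals of the 2 genotypes also differ in sequence near the 6 genes was not tested. For each genotype there is a library of naive CD4 T cells (CD4+ CD62L+ CD25-), one of freshly sorted natural regulatory T cells (nTregs, CD4+ with high CD25) and one of nTregs activated in culture by antibodies to CD3 (coated on the plate, 2 µg/ml) and to CD28 (in solution, 2 µg/ml), with 100 U/ml of IL-2. One protocol text gives 24 h of stimulation and another 48 h, and neither the number of mice behind a library nor their age or sex is stated.

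The 6 genes have unrelated products. Oip5os1, also called Cyrano, is a conserved long noncoding RNA known in mouse for a site that pairs extensively with miR-7 and triggers its destruction. Jmjd7 encodes a JmjC-domain lysyl hydroxylase, which in human cells modifies the GTPases DRG1 and DRG2, and Slc28a2 encodes CNT2, a sodium-coupled transporter that carries purine nucleosides into cells. Ehd4 encodes an ATPase that shapes endosomal membranes during recycling, Ttbk2 a kinase that licenses the first steps of cilium assembly, and Sord the sorbitol dehydrogenase that turns sorbitol into fructose in the polyol pathway.

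From left to right, Oip5os1 (chr2:119594296-119600746, plus strand) is followed by Jmjd7 (chr2:120027483-120032604, plus strand), whose start lies 433 kb further on. Ehd4 (chr2:120089487-120154575, minus strand) is the next member, beyond Pla2g4b, and Ttbk2 (chr2:120732816-120850584, minus strand) follows. Sord (chr2:122234839-122265337, plus strand) and Slc28a2 (chr2:122426357-122461152, plus strand) close the interval, with starts 192 kb apart. The members are therefore not neighbours of each other in a single block: 66 other genes of the table lie between the outer ends.

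The promoters of Oip5os1 and Slc28a2 are shown for the match they hold, and that of Jmjd7 for the start it shares with a readthrough RNA, Gm28042. YAP has no DNA-binding domain and acts through TEAD factors, and their core motif was searched for in all 6 genes (250 bases before to 50 after the start, from RefSeq on GRCm38.p6, the assembly of mm10). Capitals mark the TEAD core GGAATG, or CATTCC where it lies on the other strand.
Oip5os1 promoter, chr2:119594046-119594345, plus strand: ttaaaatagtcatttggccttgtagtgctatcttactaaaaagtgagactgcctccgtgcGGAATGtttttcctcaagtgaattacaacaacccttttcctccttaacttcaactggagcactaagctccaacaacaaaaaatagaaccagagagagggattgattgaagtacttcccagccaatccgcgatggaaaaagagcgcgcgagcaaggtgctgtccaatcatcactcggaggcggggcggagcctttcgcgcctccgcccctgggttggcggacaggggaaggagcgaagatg
Slc28a2 promoter, chr2:122426185-122426484, plus strand: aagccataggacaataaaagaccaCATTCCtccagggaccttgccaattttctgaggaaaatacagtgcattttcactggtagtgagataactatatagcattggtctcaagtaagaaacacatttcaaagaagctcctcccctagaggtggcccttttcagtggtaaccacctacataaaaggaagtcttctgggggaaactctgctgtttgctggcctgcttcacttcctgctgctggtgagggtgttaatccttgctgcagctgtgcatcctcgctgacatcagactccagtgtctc
Jmjd7 promoter, chr2:120027233-120027532, plus strand: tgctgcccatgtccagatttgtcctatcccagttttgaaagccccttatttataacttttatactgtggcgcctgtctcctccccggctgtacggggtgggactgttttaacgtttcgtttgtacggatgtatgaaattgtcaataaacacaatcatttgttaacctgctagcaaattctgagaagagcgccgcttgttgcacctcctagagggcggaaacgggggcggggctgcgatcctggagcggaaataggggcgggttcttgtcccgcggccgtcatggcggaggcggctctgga
The Oip5os1 match begins at base -190 and the Slc28a2 match at base -226, each relative to the start on which its window was built. For Slc28a2 that start lies inside the gene as given above, not at its first base. The other 4 genes, Jmjd7, Ehd4, Ttbk2 and Sord, held no match in their windows. A match in 2 of 6 genes stands beside 4817 of 32851 RefSeq promoters (14.7%) of the same length, and it describes letters, not binding. The CCAAT box (CCAAT or ATTGG) was found in 4 of the 6 genes and in 37.4% of all promoters, and the GC box (GGGCGG or CCGCCC) in 5 of the 6 genes and in 35.7% of all promoters. None of the 3 motifs contains another, and a gene counts once where, like Ttbk2, it has 2 promoters in the table.

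Oip5os1 is shown with its miR-7 partner because that pairing is what the RNA is best known for. Capitals mark the seed of the microRNA (bases 2 to 8, from RefSeq) and its complement in the Oip5os1 RNA, in the transcripts of the Gencode annotation.
miR-7a-5p: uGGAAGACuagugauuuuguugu
Oip5os1 site 1, chr2:119602139-119602161, plus strand: aacaaaatcaccaatGTCTTCCa
Oip5os1 site 2, chr2:119599949-119599971, plus strand: ggttttttttttaatGTCTTCCa
Site 1 lies at bases 2937 to 2959 of the 8300 nt Oip5os1 transcript and holds, past the seed, an unbroken run of 11 bases complementary to the microRNA's 3′ part. Site 2 lies further upstream in the same transcript and also in a shorter one of 1381 nt, and its longest such run has 3 bases. Both sites lie within an exon of the 8300 nt Gencode transcript. Site 1 lies beyond the end of the RefSeq gene given above, so it is outside the annotation to which the quantified transcripts belong, while site 2 lies inside it.

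Slc28a2 has a near copy, Slc28a2b (chr2:122484941-122528040, plus strand), just beyond the interval. The coding sequences of both have 1980 nt, and 94.8% of 1979 aligned bases are identical, with a longest identical run of 192 nt. The 60-base stretch with the most differences (coding bases 424 to 483, across an exon junction) is shown because fragments from it can be assigned to a single copy, with its 21 mismatches in capitals.
Slc28a2: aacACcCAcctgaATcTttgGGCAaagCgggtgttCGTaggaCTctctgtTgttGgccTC
Slc28a2b: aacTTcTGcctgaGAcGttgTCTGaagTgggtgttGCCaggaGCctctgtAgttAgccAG
Of the 50-base words in the longest Slc28a2 transcript, 39.6% also occur in Slc28a2b, so the split of fragments between the copies is uncertain.

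The libraries matched their sorts in the defining markers. Foxp3, the lineage factor of regulatory T cells, was 3.30 FPKM in cKO and 2.98 in WT naive cells, 45.9 in cKO and 46.6 in WT fresh nTregs, and 57.8 in cKO and 56.9 in WT stimulated nTregs. FPKM is the number of fragments per kilobase of transcript, scaled by the authors to the library. Yap1 was listed at 0 in 4 libraries, those of naive cells and of fresh nTregs, and was 0.235 in cKO and 0.169 in WT stimulated nTregs, so it gave no check of the genotype labels, and every genotype direction here rests on column names in which the abbreviation YKP was read as cKO because the other columns say WT. From the steps between low values, 1 fragment on a 1 kb transcript was worth 0.111 to 0.145 FPKM across the libraries. Xist, the RNA of the silenced X chromosome, was 8.76 in cKO and 12.5 in WT naive cells, 3.21 in cKO and 30.0 in WT fresh nTregs, and 3.43 in cKO and 21.1 in WT stimulated nTregs. Ddx3y of the Y chromosome was between 33.2 and 79.0 in all 6 libraries. The 4 NK cell markers summed to 3.26 FPKM in cKO and 8.40 in WT naive cells, 30.5 in cKO and 18.2 in WT fresh nTregs, and 65.7 in cKO and 22.0 in WT stimulated nTregs. Nkg7 made up most of the nTreg sums, at 27.8 in cKO and 15.0 in WT fresh nTregs and at 63.7 in cKO and 19.9 in WT stimulated nTregs. The receptor genes Ncr1 and Klrb1c were lower in cKO in all 3 populations and stayed at or below 1.48 FPKM. The 5 B cell markers summed to 13.1 in cKO and 16.1 in WT fresh nTregs and to 2.61 to 6.98 in the other libraries. The 5 myeloid markers summed to 1.93 FPKM in cKO and 4.21 in WT naive cells and to 2.10 in cKO and 4.85 in WT fresh nTregs. In stimulated nTregs their sum was higher in cKO than in WT, with Lyz2 at 0.821 in cKO and 0.152 in WT. The 3 erythroid and the 3 platelet markers summed to 0.0842 to 0.976 and 0.285 to 2.16 FPKM. The part of these differences in the results on the 6 genes was not tested. In bulk RNA, fewer cells that express a gene and less RNA per cell cannot be told apart.

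**Figure D1:**
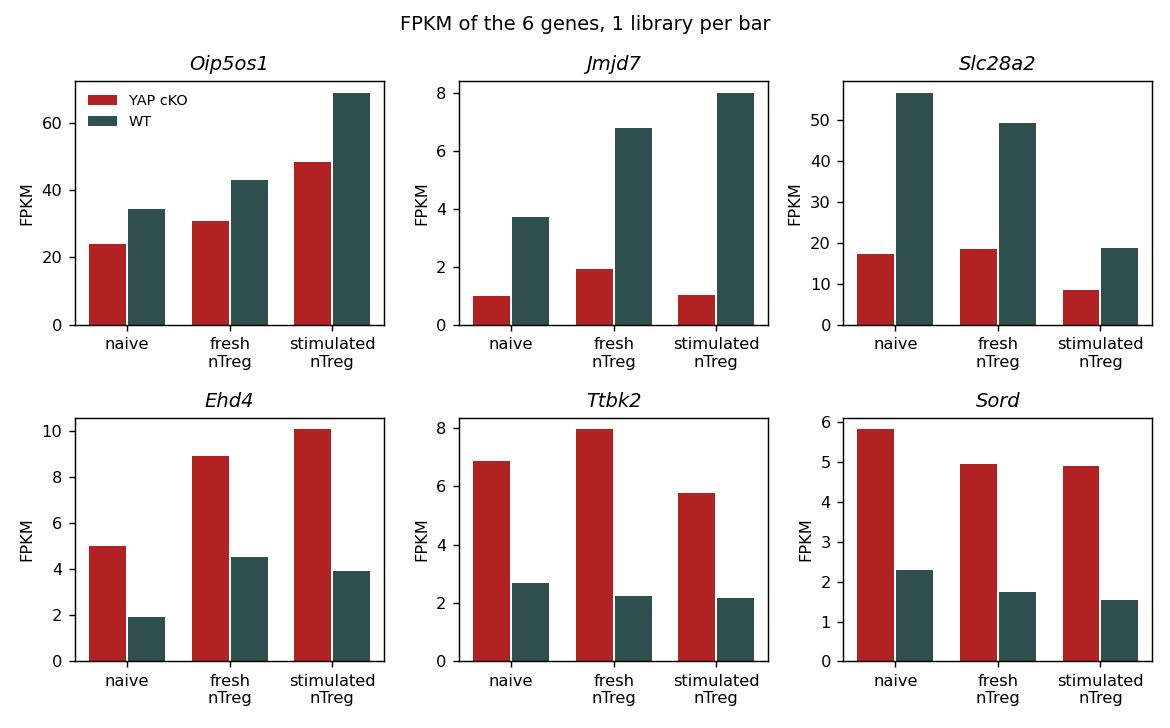
FPKM of each of the 6 genes (vertical axes, linear, from 0) in naive cells, fresh nTregs and stimulated nTregs, with YAP cKO (red) left of WT (dark grey); each bar is 1 library. The red bars are shorter in all 3 populations for the 3 genes of the upper row and taller in all 3 populations for the 3 genes of the lower row.

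Oip5os1 had the highest FPKM of the 6 genes in the 3 cKO libraries and in WT stimulated nTregs, and came after Slc28a2 in the WT naive and fresh nTreg libraries. It was 23.9 FPKM in cKO and 34.3 in WT naive cells, 30.8 in cKO and 43.1 in WT fresh nTregs, and 48.3 in cKO and 69.0 in WT stimulated nTregs. The genotype difference was the smallest and the most even of the 6: on the log2(FPKM + 1) scale naive cells stood at -0.51, fresh nTregs at -0.47 and stimulated nTregs at -0.51. The 3 values span 0.03, against spans of 0.17 to 0.92 for the other 5 genes. The lower level was spread unevenly over its RefSeq transcripts, called A and B here in order of accession. Transcript A was 17.4 in cKO and 18.8 in WT naive cells, 21.5 in cKO and 31.8 in WT fresh nTregs, and 31.5 in cKO and 34.0 in WT stimulated nTregs. Transcript B was 6.48 in cKO and 15.6 in WT naive cells, 9.37 in cKO and 11.4 in WT fresh nTregs, and 16.9 in cKO and 35.0 in WT stimulated nTregs. Both transcripts were thus lower in cKO in every population, with the larger gap in B for naive and stimulated cells and in A for fresh nTregs. With transcript A alone the gene's difference shrank to -0.10 in naive cells and -0.11 in stimulated nTregs.

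Jmjd7 had the largest ratio between genotypes of the 6 genes in stimulated nTregs. It was 0.996 FPKM in cKO and 3.73 in WT naive cells, 1.91 in cKO and 6.80 in WT fresh nTregs, and 1.01 in cKO and 8.0 in WT stimulated nTregs. The 3 cKO libraries did not reach the lowest WT library. On the log2(FPKM + 1) scale the difference was -1.24 for naive cells, -1.42 for fresh nTregs and -2.16 for stimulated nTregs. The cKO values rest on about 11.7, 22.4 and 12.3 fragments, and the WT values on 37.0, 83.8 and 75.6, for naive cells, fresh nTregs and stimulated nTregs. As ratios of WT over cKO these were 3.74-fold (1.86 to 7.68), 3.56-fold (2.25 to 6.09) and 7.90-fold (4.42 to 16.5), with 95% exact intervals that cover counting error only, as for all such intervals, because PCR copies were not marked. The 6 genes were chosen for this difference, so no such interval given for them is a test of it. Jmjd7 shares its start with Gm28042 (chr2:120027483-120043033), a readthrough RNA that continues into the phospholipase gene Pla2g4b, and 89.7% of its 50-base words occur there too. Gm28042 was 6.08e-06 FPKM in cKO and 0.534 in WT naive cells, 0.000132 in cKO and 2.32 in WT fresh nTregs, and 0.263 in cKO and 1.05 in WT stimulated nTregs. Pla2g4b was 0.416 in cKO and 1.82 in WT naive cells, 0.476 in cKO and 0.470 in WT fresh nTregs, and 0.353 in cKO and 2.00 in WT stimulated nTregs. For the summed FPKM of the 3 genes the difference was -1.55, -1.64 and -2.20 in naive, fresh and stimulated cells. This sum still moves with how shared fragments were split, because FPKM divides each gene's fragments by its own length, which is 1373 nt for Jmjd7, 5092 nt for Gm28042 and 2790 nt for Pla2g4b. The summed FPKM was lower in cKO in all 3 populations.

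Slc28a2 was the most abundant of the 6 genes in WT naive cells. It was 17.4 FPKM in cKO and 56.6 in WT naive cells, 18.6 in cKO and 49.3 in WT fresh nTregs, and 8.41 in cKO and 18.7 in WT stimulated nTregs. Every WT library exceeded every cKO library, although WT stimulated nTregs exceeded cKO fresh nTregs only slightly. The WT level was 3.26-fold (2.96 to 3.59), 2.65-fold (2.42 to 2.92) and 2.22-fold (1.92 to 2.57) that of cKO in naive, fresh and stimulated cells, and the log2(FPKM + 1) difference was -1.65, -1.36 and -1.06. The near copy Slc28a2b was 5.95 in cKO and 48.8 in WT naive cells, 5.14 in cKO and 16.9 in WT fresh nTregs, and 3.33 in cKO and 2.85 in WT stimulated nTregs. Its log2 difference was -2.84 and -1.54 in the naive and the fresh nTreg pair and 0.17 in the stimulated pair, so it did not keep one direction. Bambi-ps1 (chr2:122466583-122467797), a pseudogene between the copies, was 24.7 in cKO and 56.9 in WT naive cells, 6.77 in cKO and 11.5 in WT fresh nTregs, and 2.29 in cKO and 3.21 in WT stimulated nTregs. Like Slc28a2 it was lower in cKO in all 3 populations. The summed FPKM of both copies was 23.3 in cKO and 105 in WT naive cells, 23.7 in cKO and 66.2 in WT fresh nTregs, and 11.7 in cKO and 21.5 in WT stimulated nTregs, which gives log2 differences of -2.13, -1.44 and -0.82.

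**Figure D2:**
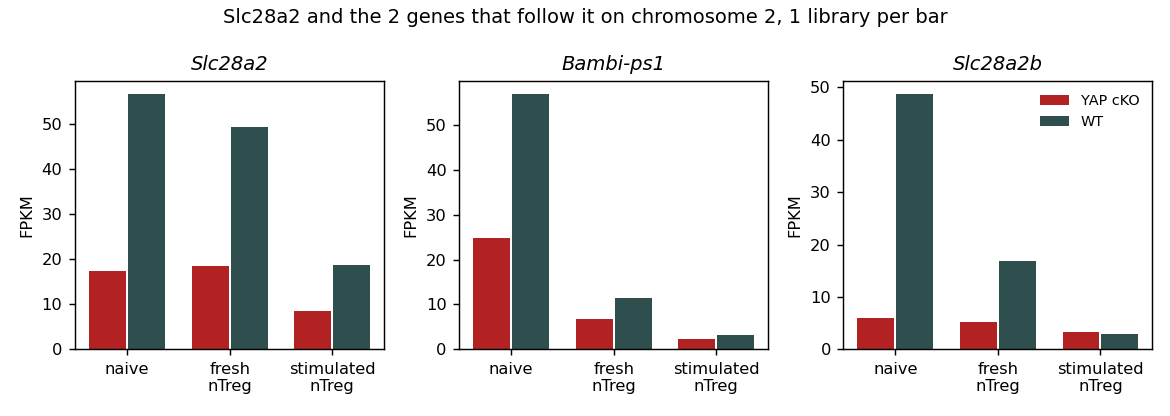
FPKM (vertical axes, linear, from 0) of Slc28a2, the pseudogene Bambi-ps1 and the near copy Slc28a2b in each population, YAP cKO (red) left of WT (dark grey), 1 library per bar. In WT naive cells the 3 genes stand at 56.6, 56.9 and 48.8 FPKM, and Slc28a2b is the only one of them with a taller cKO bar, in stimulated nTregs.

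Ehd4 was the first of the genes higher in cKO. It was 5.01 FPKM in cKO and 1.93 in WT naive cells, 8.95 in cKO and 4.55 in WT fresh nTregs, and 10.1 in cKO and 3.91 in WT stimulated nTregs. The cKO level was 2.59-fold (1.88 to 3.61), 1.97-fold (1.61 to 2.41) and 2.58-fold (2.06 to 3.27) that of WT, the log2(FPKM + 1) difference was 1.03, 0.84 and 1.17, and every cKO library stood above the highest WT library. None of its 50-base words occurs in another gene's transcripts, so its values do not depend on a copy.

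Ttbk2 was 6.87 FPKM in cKO and 2.68 in WT naive cells, 7.95 in cKO and 2.24 in WT fresh nTregs, and 5.78 in cKO and 2.17 in WT stimulated nTregs. The lowest cKO library stood above the highest WT library, with cKO over WT ratios of 2.57-fold (2.22 to 3.05), 3.55-fold (3.04 to 4.13) and 2.67-fold (2.23 to 3.19). The log2(FPKM + 1) difference was 1.10, 1.47 and 1.10. Its 3 transcripts of 11152, 11066 and 10926 nt, called A, B and C, shared the difference unequally. Transcript A was 4.0 in cKO and 7.51e-05 in WT naive cells, 0.455 in cKO and 0.837 in WT fresh nTregs, and 1.68 in cKO and 0.546 in WT stimulated nTregs. Transcript C was 2.87 in cKO and 2.67 in WT naive cells, 6.39 in cKO and 1.40 in WT fresh nTregs, and 4.10 in cKO and 1.62 in WT stimulated nTregs. In naive cells the difference therefore sat in transcript A, and in the nTregs mostly in transcript C, whose naive difference alone was 0.07 in log2. These transcripts are nearly equal in length and overlap, so their estimated shares are less certain than their sum. At its 3′ side, 29.8% of the longest transcript's 50-base words are also annotated in Cdan1 on the same strand. Cdan1 itself was 5.37 in cKO and 5.77 in WT naive cells, 5.56 in cKO and 5.61 in WT fresh nTregs, and 5.85 in cKO and 5.06 in WT stimulated nTregs, with no difference near that of Ttbk2.

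Sord was 5.83 FPKM in cKO and 2.29 in WT naive cells, 4.95 in cKO and 1.74 in WT fresh nTregs, and 4.91 in cKO and 1.54 in WT stimulated nTregs. All 3 cKO libraries lay between 4.91 and 5.83 and all 3 WT libraries between 1.54 and 2.29. The cKO level was 2.54-fold (1.75 to 3.75), 2.84-fold (1.91 to 4.23) and 3.19-fold (2.02 to 5.11) that of WT in naive, fresh and stimulated cells, and the log2(FPKM + 1) difference was 1.05, 1.12 and 1.22. Of its 50-base words, 31.3% also occur in Gm6652, which was not analysed here.

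**Figure D3:**
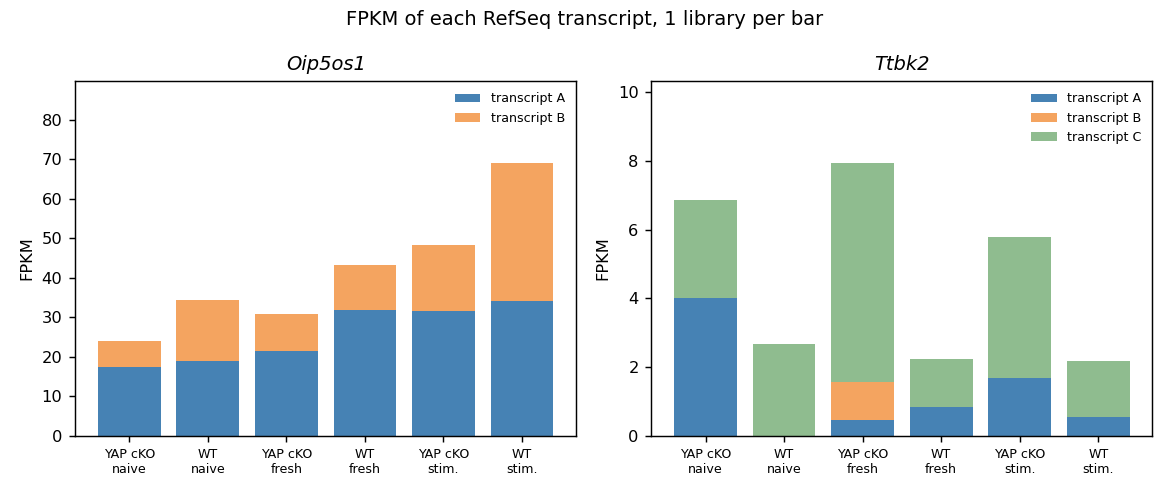
FPKM (vertical axes, linear, from 0) of the RefSeq transcripts of Oip5os1 and Ttbk2, stacked to the gene's sum, for each library, with the cKO library left of the WT library of the same population. For Ttbk2 the blue part (transcript A) is 4.0 FPKM in cKO naive cells and close to 0 in WT naive cells, while the green part (transcript C) is 6.39 in cKO and 1.40 in WT fresh nTregs.

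The interval was not shifted as a whole. Of its 72 table genes, 50 had at least 1 FPKM in at least 2 libraries. Each median was taken over interval genes with at least 1 FPKM in either library of the pair (44, 46 and 50 genes). The median log2 difference was 0.06 for naive cells, 0.05 for fresh nTregs and -0.00 for stimulated nTregs. Over all genes compared in the same way it was -0.00, -0.00 and 0.04. All 3 differences had one sign in 25 of the 50 genes with at least 1 FPKM in at least 2 libraries, beside 36.3% of all genes tested. The 6 chosen genes have one sign by the rule, and without them 19 of 44 did. A 2-fold difference in FPKM + 1 was found for 5 of 44 interval genes in the naive pair, 6 of 46 in the fresh nTreg pair and 7 of 50 in the stimulated pair, while the share among all genes was 1.19%, 1.03% and 1.88%. The 6 chosen genes supplied 5, 4 and 5 of these. The largest difference of the interval in both nTreg pairs belonged to a non-member, Eif3j1, which lies between Ttbk2 and Sord. It was 24.0 FPKM in cKO and 0.145 in WT fresh nTregs, and 23.1 in cKO and 0.187 in WT stimulated nTregs. Its log2 differences there were 4.45 and 4.34. In naive cells it was 0.154 in cKO and 0.182 in WT, so it did not keep one direction. For each gene, the smallest of its 3 absolute log2 differences was taken where all 3 had one sign. In the interval 9 of 50 genes reached 0.3 by this measure, against 241 of 11214 over all genes (2.15%). On the rest of chromosome 2, with the 3 Mb on either side included, 17 of 832 did. Nothing is read from that contrast, since 6 of the 9 are the chosen genes, and without them 3 of 44 remained. Among all 11214 genes, Jmjd7 ranked 15th by this measure, Ttbk2 19th, Slc28a2 22nd, Sord 23rd, Ehd4 33rd and Oip5os1 99th. The rule used the same differences, so these ranks describe the choice and nothing is read from them either.

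The rule set no number, so the members nearest to its edge and the non-members nearest to it overlap. Oip5os1 had the smallest value inside, 0.47, and the readthrough RNA Gm28042 had 0.62 without being a member. Tyro3, a receptor tyrosine kinase gene between Oip5os1 and Jmjd7, followed with 0.37, higher in cKO, at 3.82 FPKM in cKO and 2.64 in WT naive cells, 3.83 in cKO and 2.75 in WT fresh nTregs, and 3.44 in cKO and 2.00 in WT stimulated nTregs. Lcmt2, which encodes a tRNA-modifying methyltransferase, had 0.34, lower in cKO, at 5.65 in cKO and 7.40 in WT naive cells, 3.33 in cKO and 5.04 in WT fresh nTregs, and 2.75 in cKO and 5.63 in WT stimulated nTregs. Mga, Vps39, Golm2, Rpap1 and Mfap1a came next, with 0.18, 0.16, 0.15, 0.12 and 0.11. Of the 10 tested genes in the 3 Mb beyond Slc28a2, 3 reached 0.3, Bambi-ps1 (0.36), the zinc transporter gene Slc30a4 (0.49, lower in cKO) and Bloc1s6 (0.36, higher in cKO), a subunit gene of a lysosome-related organelle complex. In the 3 Mb before Oip5os1, Ivd alone of 23 genes did so.

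**Figure D4:**
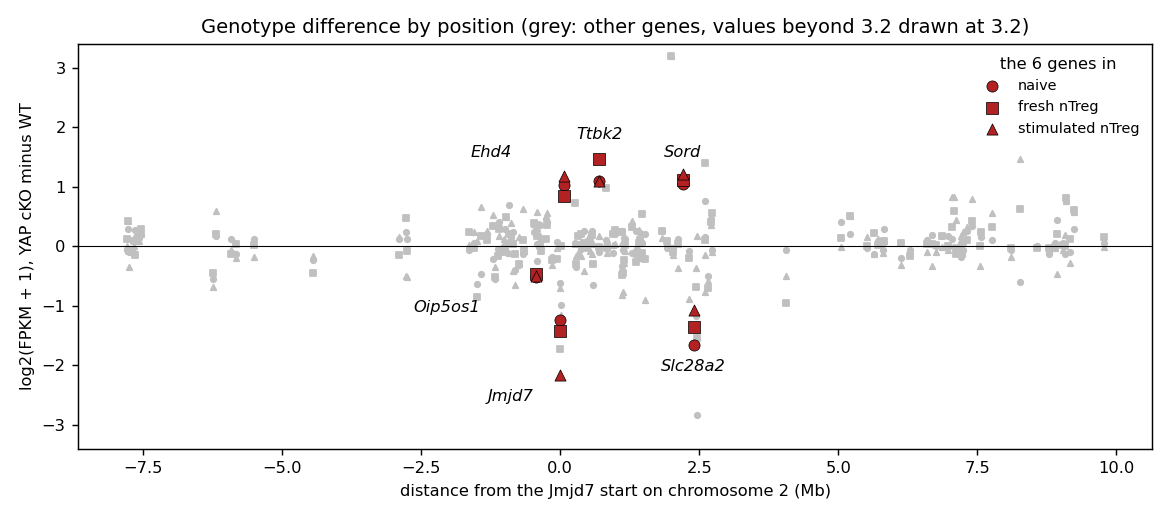
Difference in log2(FPKM + 1), YAP cKO minus WT (vertical axis), against distance from the Jmjd7 start (horizontal axis, Mb), for genes tested within 10 Mb; marker shapes give the population, and the 6 chosen genes are red. The 3 red markers of each gene lie on the same side of 0, while most grey genes between and beside them lie near 0. Grey values beyond the drawn range are placed near its edge, as for Eif3j1 in both nTreg populations.

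In the additive limma fit of population and genotype, 42 of 11214 genes were called for genotype (0.375%) at an adjusted p under 0.05, and 1345 had an unadjusted p under 0.05. This count is over all genes, and no estimate or call from it is given for the 6 chosen genes because the same contrast chose them. Without either fresh nTreg library 16 genes were called, without either naive library 71 or 75, and without either stimulated library 97 or 103.

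The choice of genes did not use the changes between cell populations, but it did use agreement of the genotype difference across populations. The error term of the fit measures how much that difference varies between populations. The SE and p-values of the 6 genes are therefore not independent of the choice and may be too small. Of the 6, 2 rose between fresh nTregs and naive cells and none fell, beside 16.5% and 14.8% of all genes tested. Between stimulated and fresh nTregs, 1 rose and 1 fell, beside 22.6% and 27.3%. Oip5os1 rose in fresh nTregs over naive cells by 0.34 in log2 (SE 0.07, limma adjusted p = 0.0189) and again in stimulated over fresh nTregs by 0.65 (SE 0.07, limma adjusted p = 0.00114), in both genotypes. The stimulation changes were 0.63 in cKO and 0.67 in WT. Its call between fresh nTregs and naive cells was lost when any of the 4 naive or fresh libraries was left out (limma adjusted p = 0.113 to 0.198), with changes of 0.32 to 0.35.

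Slc28a2 fell in stimulated nTregs, with log2 changes of -1.06 in cKO and -1.35 in WT and a fitted change of -1.21 (SE 0.14, limma adjusted p = 0.00135). Between fresh nTregs and naive cells its fitted change was -0.05 (SE 0.14, limma adjusted p = 0.813). Bambi-ps1 fell in both comparisons, by 1.97 and by 1.40, while the changes of Slc28a2b, -0.83 and -1.36, were not called (limma adjusted p = 0.352 and 0.118). Without the cKO naive library the change of Slc28a2b between fresh nTregs and naive cells was -1.90 (limma adjusted p = 0.0372), and without the cKO stimulated library its stimulation change was -2.54 (limma adjusted p = 0.00207).

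Ehd4 rose in fresh nTregs over naive cells, by 0.73 in cKO and 0.92 in WT, with a fitted change of 0.82 (SE 0.13, limma adjusted p = 0.00636). Without the WT fresh nTreg library it was 0.69 (limma adjusted p = 0.0709). Its stimulation change was -0.01 (SE 0.13, limma adjusted p = 0.957). When the libraries were scaled to equal FPKM sums, the median of all genes was 0.46 in log2 between stimulated and fresh nTregs and 0.15 between fresh nTregs and naive cells, against -0.05 and -0.02 as deposited, and Ehd4 then stood at 0.49 (limma adjusted p = 0.0156), close to that median. Under the same scaling Oip5os1 stood at 1.22 and Slc28a2 at -0.66 between stimulated and fresh nTregs, still called in the same directions.

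Jmjd7, Ttbk2 and Sord were called in neither comparison. Jmjd7 changed by 0.63 (SE 0.23, limma adjusted p = 0.0891) between fresh nTregs and naive cells and by -0.16 (SE 0.23, limma adjusted p = 0.590) with stimulation, where the libraries moved apart, with -0.53 in cKO and 0.21 in WT. Without either stimulated library the first change had a limma adjusted p of 0.00988 or 0.0140, and without the WT stimulated library the second was -0.58 (limma adjusted p = 0.0487). Ttbk2 changed by 0.00 (SE 0.15, limma adjusted p = 0.996) and -0.22 (SE 0.15, limma adjusted p = 0.261), and Sord by -0.23 (SE 0.13, limma adjusted p = 0.215) and -0.06 (SE 0.13, limma adjusted p = 0.715). For these 3 genes the genotype difference exceeded every difference between populations within a genotype.

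**Figure D5:**
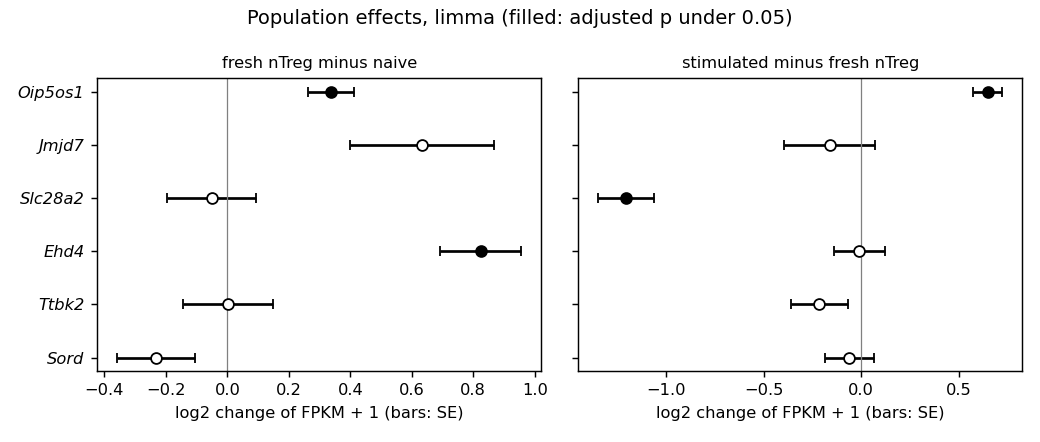
Fitted changes in log2(FPKM + 1) of the 6 genes (horizontal axes, bars are SE) between fresh nTregs and naive cells (left) and between stimulated and fresh nTregs (right), from the additive limma fit over 6 libraries; filled points have an adjusted p under 0.05. Oip5os1 is filled on both sides, Ehd4 on the left at 0.82 and Slc28a2 on the right at -1.21.

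Genes that work with each member were measured beside it, and the lists are given by their counts and median changes, beside the shares above and medians of -0.02 and -0.05 over all genes. Of 28 population calls of 18 such genes that were followed through the alternatives, 13 were lost at equal FPKM sums and 17 without at least 1 of the libraries. Of the 13 tested genes of nucleoside transport and salvage, 3 rose and none fell in fresh nTregs over naive cells, and 4 rose and 3 fell in stimulated over fresh nTregs (medians 0.07 and 0.12). The equilibrative transporter gene Slc29a1 rose in both, by 0.95 (limma adjusted p = 0.00296) and 0.71 (limma adjusted p = 0.00510), where Slc28a2 fell with stimulation. It was 11.2 FPKM in cKO and 11.1 in WT naive cells, 22.5 in cKO and 22.5 in WT fresh nTregs, and 42.9 in cKO and 32.5 in WT stimulated nTregs. Tk1, thymidine kinase, rose by 1.76 in fresh nTregs over naive cells, and Upp1, uridine phosphorylase, rose by 1.65 with stimulation. The adenosine enzymes Ada and Adk fell with stimulation by 0.51 and 0.43. At equal FPKM sums they stood at -0.04 (limma adjusted p = 0.784) and 0.13 (limma adjusted p = 0.403), so both calls depend on the scaling. The related transporter genes Slc28a1 and Slc28a3 stayed at or below 0.235 FPKM in all 6 libraries.

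In the polyol and fructose list, 2 of 7 tested genes rose and 1 fell in fresh nTregs over naive cells, and 1 rose and 2 fell with stimulation (medians -0.23 and -0.07). Hk2, hexokinase 2, rose in both, by 1.64 and 0.75, and Khk, which phosphorylates fructose, fell in both, by 0.48 and 0.56. At equal FPKM sums Khk was called in neither, at -0.31 (limma adjusted p = 0.153) and -0.15 (limma adjusted p = 0.385). Akr1b3, the aldose reductase that makes the sorbitol used by Sord, was 17.5 FPKM in cKO and 18.1 in WT naive cells, 17.5 in cKO and 8.27 in WT fresh nTregs, and 18.6 in cKO and 5.39 in WT stimulated nTregs. Its cKO libraries lay between 17.5 and 18.6, and it was higher in cKO in both nTreg populations but not in naive cells, whereas Sord was higher in all 3. Akr1b3 was called in neither population comparison (limma adjusted p = 0.307 and 0.619). Its change between fresh nTregs and naive cells was -0.52, and without the cKO naive library it was -1.20 (limma adjusted p = 0.0132).

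Among the 11 tested genes of the EHD family and the recycling endosome, 5 rose and 2 fell in fresh nTregs over naive cells, and 4 rose and 4 fell with stimulation (medians 0.35 and -0.01). Ehd1 rose with Ehd4 in fresh nTregs, by 1.18 (limma adjusted p = 0.00365), and rose further with stimulation by 0.74 (limma adjusted p = 0.0113). Ehd3 fell in both comparisons, by 1.01 (limma adjusted p = 0.00295) and 1.89 (limma adjusted p = 0.000244). Ehd1 was 3.93 FPKM in cKO and 4.34 in WT naive cells, 12.0 in cKO and 9.34 in WT fresh nTregs, and 21.9 in cKO and 15.4 in WT stimulated nTregs. Ehd3 was 42.7 in cKO and 38.9 in WT naive cells, 19.6 in cKO and 19.8 in WT fresh nTregs, and 4.0 in cKO and 5.30 in WT stimulated nTregs. Neither family member reached a 2-fold genotype difference in FPKM + 1 in any population, while Ehd4 exceeded it in naive cells and stimulated nTregs.

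Of the 12 JmjC hydroxylase genes and their targets, none rose and 3 fell in fresh nTregs over naive cells, namely Jmjd6, Jmjd8 and Riox1, by 0.57, 0.51 and 0.54. At equal FPKM sums Jmjd8 (-0.32, limma adjusted p = 0.0613) and Riox1 (-0.34, limma adjusted p = 0.0868) were not called. With stimulation 1 rose and 1 fell, and the median changes were -0.20 and -0.02. Drg1 and Drg2, the genes of the GTPases that JMJD7 modifies in human cells, were called in neither comparison, and Drg1 was 43.2 FPKM in cKO and 44.8 in WT naive cells, 47.5 in cKO and 47.0 in WT fresh nTregs, and 62.2 in cKO and 51.1 in WT stimulated nTregs. Jmjd7 was the only gene of this list with a 2-fold genotype difference.

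Of the 7 tested genes of the tau tubulin kinase and ciliogenesis list, none rose and 2 fell in fresh nTregs over naive cells, and 3 rose and 2 fell with stimulation (medians -0.08 and 0.10). Cep164, the centriole protein that recruits TTBK2, fell in both, by 0.56 and 0.49, and so did Cep97, by 0.61 and 0.47. Ccp110, the cap protein of the mother centriole, rose with stimulation by 0.70. At equal FPKM sums none of the 4 falls was called. Cep164 then stood at -0.38 between fresh nTregs and naive cells (limma adjusted p = 0.0544) and at -0.02 with stimulation (limma adjusted p = 0.917). Cep97 stood at -0.42 (limma adjusted p = 0.117) and 0.07 (limma adjusted p = 0.733). Ttbk2 was the only gene of this list with a 2-fold genotype difference in any population.

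In the Oip5os1 circuit, the neighbouring gene Oip5 (1.72, limma adjusted p = 0.000869) and Oip5os1 were the 2 genes that rose with stimulation among 4 tested, where none fell (median 0.38). Oip5, a gene of centromere assembly, was 0.712 FPKM in cKO and 1.03 in WT naive cells, 0.715 in cKO and 0.526 in WT fresh nTregs, and 4.94 in cKO and 3.77 in WT stimulated nTregs. It thus did not share the genotype difference of Oip5os1. Mir7-1 was 221 in cKO and 253 in WT naive cells and was listed at 0 in the 4 nTreg libraries, while Mir7-2 and Mir7b were listed at 0 in all 6. It was the gene of this list called lower in fresh nTregs, Oip5os1 the one called higher (median -0.08). A microRNA hairpin is so short that few fragments give a large FPKM, and mature microRNA is not measured in such libraries.

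Profiles over the 6 libraries were compared by the root mean square distance between centred log2(FPKM + 1) values. The 6 members were left out of the genes searched, so distances between members are not given. Among the remaining genes, the 3 nearest to each member all lay on other chromosomes. For Oip5os1 the nearest was H2bc15 on chromosome 13, a histone gene of a family with similar copies, at a distance of 0.05. H2bc15 was 28.5 FPKM in cKO and 45.6 in WT naive cells, 38.6 in cKO and 54.3 in WT fresh nTregs, and 60.2 in cKO and 89.2 in WT stimulated nTregs. For Jmjd7 it was Rab6b on chromosome 9 (0.25), a Golgi traffic GTPase gene, and for Ehd4 it was Sytl1 on chromosome 4 (0.15), a gene of vesicle traffic. Among these non-members, Gpr137b on chromosome 13 was nearest to both Ttbk2 (0.13) and Sord (0.18), followed for both by Gm6034 on chromosome 17. For Slc28a2 it was Cpm on chromosome 10 (0.27), which encodes a membrane carboxypeptidase. Cpm was 2.79 in cKO and 14.8 in WT naive cells, 3.60 in cKO and 10.4 in WT fresh nTregs, and 0.678 in cKO and 2.02 in WT stimulated nTregs. These profiles include the genotype difference that chose the members, so they are descriptions only.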

How the data were processed

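Total RNA libraries of 6 groups, 1 per group, were strand-specific, made after depletion of ribosomal RNA from 322 ng with 12 PCR cycles, per the labels' protocols. Reads were checked with FastQC, aligned with TopHat to mm10 and quantified with Cuffdiff and Cuffnorm, per the submitters' processing notes, with versions not given in the sources used here. The deposited values are FPKM per RefSeq transcript, which Cuffnorm brought to a common scale in the authors' hands. Because FPKM holds no counts and moves with transcript length and with the rest of a library's RNA, count tests were not applied.

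The 32860 rows held 32547 transcripts, of which 165 were repeated with equal values and used once. RefSeq (GRCm38.p6) named 32097 transcripts through their accessions and the deposited symbol a further 401, so that Oip5os1 and Slc28a2b were found although the table holds older symbols for them. Transcript values were summed per gene. The 11214 genes with at least 1 FPKM in at least 2 libraries were fitted with limma 3.58.1 in R 4.3.3 on log2(FPKM + 1), a scale that understates the change of low genes, with additive population and genotype terms, an intensity trend and Benjamini-Hochberg adjustment over all 11214. That leaves 2 residual degrees of freedom (4.03 prior), and p-values measure departure from additivity between libraries, not spread between mice. Fragment numbers were estimated from Gencode lengths and the worth of 1 fragment, for which 78.1% to 81.0% of low values fell within 0.1 in log2 of a whole number, and give conditional exact 95% intervals of ratios. Oip5os1 has no such interval because its transcripts could not be matched to single Gencode lengths. Shared sequence was counted in words of 50 bases over Gencode transcripts, and coding sequences were aligned with Biopython 1.88.

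All 6 members were named in full, with their copies and overlapping genes and up to 8 further interval genes by the smallest of 3 genotype differences. Also named were the 3 non-member genes per member with the nearest profiles, and called genes of 6 lists of related genes. Cdan1, Gm28042 and Bambi-ps1 were added for their overlap or position. Akr1b3, Drg1, Slc28a1, Slc28a3, Oip5, Bloc1s6, Slc30a4, Ivd and Eif3j1 were added after their values were seen. The members and lists were chosen with earlier results of these data known. Alternatives were another pseudocount (0.1), no filter or a minimum of 5 FPKM, equal FPKM sums, no trend, single transcripts, sums over copies and leaving out each library.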

Additional observations from a re-analysis of the deposited data

Results flagged for a closer look

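The genotype difference of Slc28a2b, the near copy of Slc28a2, ran in opposite directions in naive cells and in stimulated nTregs, with log2(FPKM + 1) differences of -2.84 and 0.17 that lie 3.01 apart. With 1 library per group this difference between populations was not tested. Its stimulated values rest on about 111 fragments in cKO and 73.3 in WT, and the cKO over WT ratio there was 1.17-fold (0.869 to 1.60, counting error only). Pla2g4b, the partner of the Jmjd7 readthrough, differed by -1.15 in stimulated nTregs and by 0.01 in fresh nTregs, 1.15 apart, which was not tested either. It rests on about 8.75 fragments in cKO and 38.4 in WT stimulated nTregs, and on 11.3 in cKO and 11.8 in WT fresh nTregs.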

How the results depend on the processing

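No genotype difference of the 6 genes changed sign under another pseudocount, equal FPKM sums, the most abundant transcript alone or a sum over copies. The sum of Jmjd7, Gm28042 and Pla2g4b was added after seeing the data. With a pseudocount of 0.1 Jmjd7 stood at -1.80, -1.78 and -2.86 and Ttbk2 at 1.33, 1.78 and 1.37 in naive, fresh and stimulated cells. With no filter 2199 genes were called between fresh nTregs and naive cells and 4 between genotypes. Leaving out each library in turn gave 1303 to 4785 calls between fresh nTregs and naive cells, 2917 to 5415 between stimulated and fresh nTregs, and 16 to 103 between genotypes. The single library that remains in such a group is assumed to vary like the others. At equal FPKM sums the interval's median genotype difference in stimulated nTregs was -0.14, where the median of all genes moved from 0.04 to -0.11. The same scaling turned the stimulation changes of Adk (0.131), Akr1b10 (0.0717), Cep97 (0.0714) and Jmjd6 (0.0425) from negative to positive, all below the median of all genes there (0.46). No paired analysis was possible because each group has 1 library and the labels give no replicate numbers. Jmjd7 is limited by depth, with about 11.7 to 22.4 fragments in the cKO libraries.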
